A study of Mus musculus with 25 samples.

Results

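The muscle miRNAs miR-206-3p, miR-1a-3p and miR-133a-3p were followed in small extracellular vesicles, membrane-bound particles that cells release, prepared from mouse liver. They were chosen by name as skeletal and heart muscle miRNAs, as a check on material from outside the liver in the vesicles of the youngest mice. Their entries are mmu-miR-206-3p, mmu-miR-1a-3p and mmu-miR-133a-3p, written below without the species prefix, 3 of 1493 in the count table. All mice were wild-type C57BL/6J, with no treatment named in the labels, and were 1 week, 6 weeks, 6 months, 12 months or 14 months old. The 25 libraries come from 5 animals at every age, 1 library for each animal, and 20 of them are from adult ages. Liver tissue was taken apart with a dissociation kit and vesicles were collected by ultracentrifugation, per the labels, so the vesicles can come from any cell in the dissected piece. Both sexes were used, without the sex of each mouse, and the batch given in the labels is the age again. Handling that differed between ages and age itself cannot be told apart.

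Skeletal and heart muscle make a small set of miRNAs that are scarce in most other tissues. Of these, miR-1 and miR-133a are cut from shared primary transcripts in both kinds of muscle, whereas miR-206 and miR-133b come from a separate locus that is active in skeletal muscle. In muscle precursor cells miR-1 and miR-206 promote differentiation, and miR-133 is tied to the growth of the precursor pool and to the structure of the heart. Hepatocytes are not known for any of them.

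The sequences show the target-recognising seed (bases 2 to 8, in capitals), which differs between the 4 entries printed. They are RefSeq mature sequences on GRCm38.p6, the build that is also called mm10, and 11 of 18 entries of a muscle list, 1 of the 3 members among them, matched the RefSeq table used here.
miR-206-3p: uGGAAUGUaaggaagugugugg
miR-133b-3p: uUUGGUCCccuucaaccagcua
miR-208b-3p: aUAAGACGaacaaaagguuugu
miR-499-5p: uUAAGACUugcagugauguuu

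The seed of miR-206-3p is also that of miR-1a-3p, as is known for this family, and miR-133a-3p differs from miR-133b-3p at its 3′ end. Reads of such close relatives could be shared between entries, depending on the mismatches the authors allowed, which are not given in the sources used here. Mir206 lies at chr1:20679010-20679082 on the plus strand, in an exon of the long noncoding RNA gene Gm28653. Its hairpin is shown to place the counted arm, in capitals, on the 3′ side of the stem.
Mir206 hairpin: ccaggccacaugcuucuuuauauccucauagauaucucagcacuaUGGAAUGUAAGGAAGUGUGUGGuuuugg

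Mir133b lies 3686 bases downstream of Mir206, at chr1:20682769-20682887, in an exon of the same noncoding RNA gene. Mir1a-1 and Mir133a-2 are neighbours on chromosome 2, at chr2:180389048-180389124 and chr2:180398379-180398482 on the plus strand, 9254 bases apart and outside other annotated genes. A further pair of copies, Mir1a-2 and Mir133a-1, lies on chromosome 18 within introns of Mib1, on the strand opposite to it. The deposited counts give 1 row for miR-1a-3p and 1 for miR-133a-3p, so the copies cannot be told apart. Mir208b lies in an intron of Myh7 and Mir499 in an intron of Myh7b, both genes of slow muscle and heart myosin.

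Library totals ran from 641579 to 3989776 counts in adult libraries and from 2095925 to 6888928 at 1 week, with the highest total in mouse 27 of 1 week. Levels are given as counts per 1000000 (CPM) after TMM scaling, whose factors were 0.720 to 1.08 in adults and 1.30 to 1.78 at 1 week, so scaled 1-week levels are below their raw shares. A floor of 3 counts corresponds to 0.978 to 4.89 CPM in adult libraries and 0.283 to 0.911 CPM at 1 week. The liver label was checked with miR-122-5p, the main hepatocyte miRNA, which held 53.9% to 62.0% of counts in adult libraries and 56.1% to 67.5% at 1 week. None of the 50 pairs of libraries within an age held identical counts, and every pair differed beyond counting noise (chi-squared of at least 12.1 times its degrees of freedom).

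The skeletal muscle miRNA miR-206-3p was near the counting limit at every adult age and plentiful at 1 week. At 6 weeks it had 1.40, 0, 1.94, 0.885 and 1.78 CPM in mice 6, 7, 8, 9 and 10, against 275, 148, 481, 50.4 and 989 CPM in mice 1, 3, 4, 5 and 27 of 1 week. The groups did not overlap, and the lowest 1-week library, mouse 5, stood above every one of the 20 adult libraries, as in 25.3% of tested entries. In counts, 7 were found over the 5 libraries of 6 weeks and 14293 over those of 1 week. Means were 1.20 ± 0.784 CPM at 6 weeks and 389 ± 372 CPM at 1 week (SD, n = 5 each), and the log2 fold change was -8.13 ± 0.80 (SE, edgeR quasi-likelihood test, adjusted p = 1.90e-09). Pooled over libraries this was a level 407-fold lower at 6 weeks, with a 95% exact counting interval of 198 to 1013. That value rests on mouse 27, with 10495 of the 14293 counts, and without it the pooled level was 183-fold lower (88.8 to 456). The fitted log2 fold change without mouse 27, the deepest library, was -7.42 (adjusted p = 9.73e-10), and with log2 library total as a covariate it was -7.05 (adjusted p = 1.56e-06).

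Its close relative miR-1a-3p, made in heart as well as skeletal muscle, also fell, from a lower 1-week level. At 6 weeks it had 1.40, 0, 0, 4.43 and 3.57 CPM in mice 6, 7, 8, 9 and 10, against 24.3, 31.5, 11.8, 6.37 and 119 CPM in mice 1, 3, 4, 5 and 27 of 1 week. Every 6-week library was below every 1-week library, but mouse 27 alone set much of the 1-week mean. Means were 1.88 ± 2.04 CPM at 6 weeks and 38.5 ± 45.9 CPM at 1 week (SD, n = 5 each). The log2 fold change was -4.12 ± 0.69 (SE, edgeR adjusted p = 9.31e-06), from 12 counts at 6 weeks and 1551 at 1 week. Without mouse 27 it was -3.05 (adjusted p = 1.97e-05), and with log2 library total as a covariate -2.59 (adjusted p = 0.00579).

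**Figure D1:**
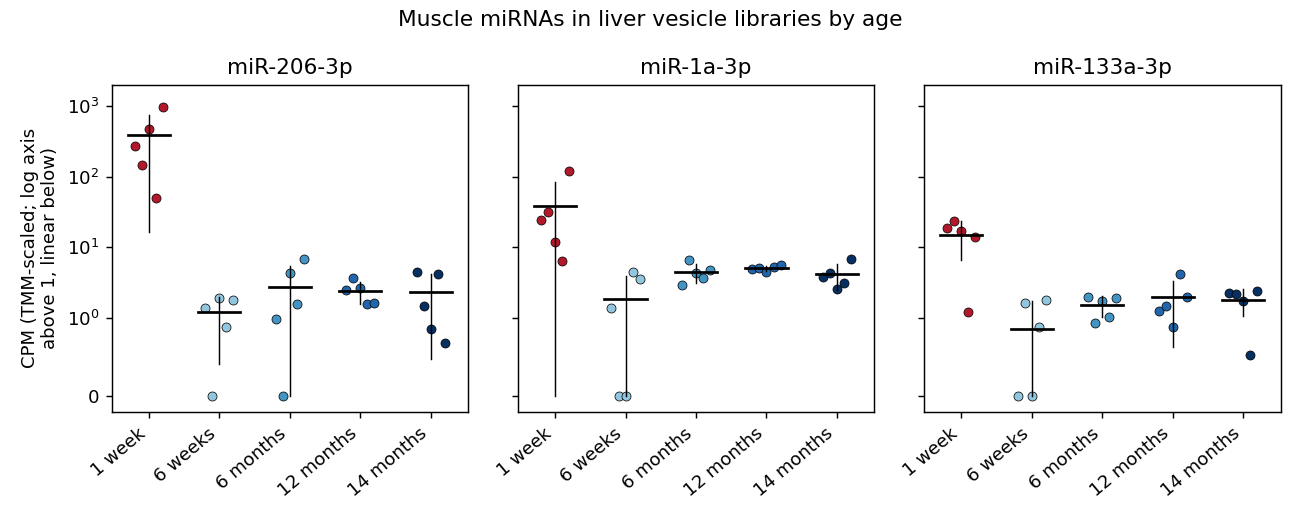
Level of each muscle miRNA in CPM (TMM-scaled; log axis above 1, linear below) in each of the 25 libraries, by age. Points are libraries, horizontal lines the mean of 5, and vertical lines the SD, cut off at 0. For miR-206-3p the adult libraries, at 0 to 6.72 CPM, are all below the 1-week libraries, at 50.4 to 989 CPM, whereas for miR-133a-3p mouse 5 of 1 week lies among the adults at 1.21 CPM.

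Both of these entries passed the filter on low counts through the 1-week libraries: for each, its limit of 5.75 unscaled CPM was reached in 1 of 20 adult libraries, against 5 of 5 at 1 week. Being kept for that reason, they could hardly be other than lower in adults, and the number of members called is no evidence by itself. At 6 weeks against 1 week, 71.9% of the 391 tested entries were called, 36.8% lower and 35% higher. In 28.6% of tested entries every 6-week library was below every 1-week library. The median log2 fold change of all tested entries was 0.12, and it depended on the scaling: it shifted by -0.46 with RLE scaling and by -0.66 with library totals alone. Of the calls, 51.2% were lower at 6 weeks with TMM, 60.7% with RLE and 66.9% with library totals alone. Both members were called lower under each of these scalings, at -8.58 and -8.79 for miR-206-3p and at -4.58 and -4.80 for miR-1a-3p with RLE and with library totals. Ranked from the most negative, miR-206-3p was number 7 of the 391 and miR-1a-3p number 55.

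**Figure D2:**
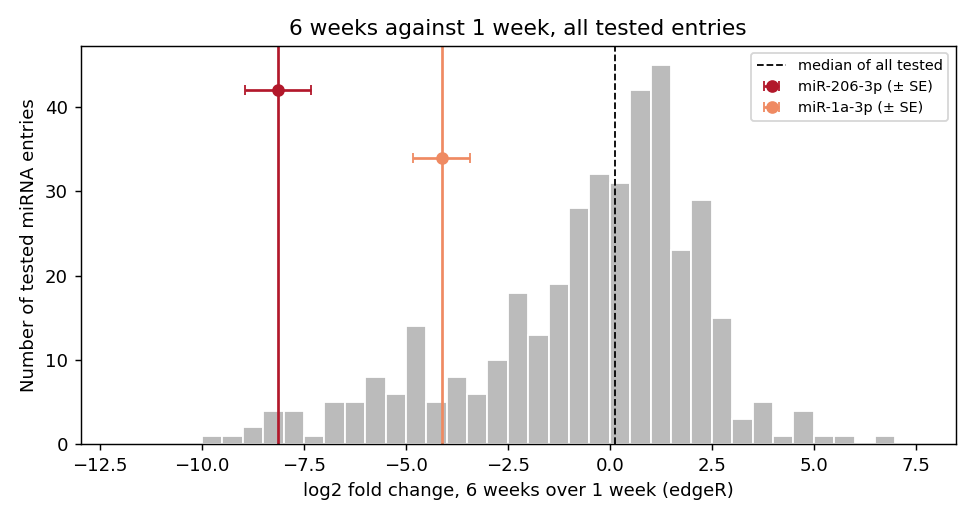
Histogram of the log2 fold change of 6 weeks over 1 week (x axis) for the 391 tested entries, with the number of entries on the y axis. Points with bars mark miR-206-3p at -8.13 and miR-1a-3p at -4.12 with their SE, placed at arbitrary heights, and the dashed line marks the median of 0.12.

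The third member, miR-133a-3p, is transcribed with miR-1a-3p and was also low at 1 week. At 6 weeks it had 0, 1.63, 0, 0.885 and 1.78 CPM in mice 6, 7, 8, 9 and 10, against 18.8, 23.8, 17.0, 1.21 and 14.0 CPM in mice 1, 3, 4, 5 and 27 of 1 week. Mouse 5 lay within the 6-week range, and the remaining 1-week libraries lay above it. It did not pass the filter, as no adult library and 4 of 5 libraries of 1 week reached the limit, so its CPM was compared with an exact two-sided permutation test. The difference of 6 weeks minus 1 week was -14.1 CPM, between 0.860 ± 0.856 and 15.0 ± 8.47 CPM (SD, n = 5 each, exact permutation p = 0.0238, adjusted p = 0.0496 over 5 comparisons, where the smallest p the test can give is 0.00794). In an edgeR fit without the filter the log2 fold change was -4.22 ± 0.71 (SE, adjusted p = 4.25e-08). The p-values of that fit are not comparable with those of the filtered fit. In it an F statistic of 35.2 gave miR-133a-3p an edgeR p of 2.99e-09. With the filter an F statistic of 35.3 gave miR-1a-3p an edgeR p of 3.02e-06. The permutation call was lost without mouse 1, 3, 4 or 27 (adjusted p = 0.0873 each, a difference of -14.3 to -11.9 CPM) and also when an adult mouse 6, 8 or 9 was left out (adjusted p = 0.0595).

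The low level held at each later age. Over 6 weeks, 6 months, 12 months and 14 months, miR-206-3p averaged 1.20 ± 0.784, 2.73 ± 2.76, 2.40 ± 0.856 and 2.33 ± 1.86 CPM. Of the 20 adult libraries 13 had at most 3 counts of it and 2 had none, and its 64 adult counts were 0.446% of all its counts. Against 1 week, its log2 fold change was -7.17 ± 0.73 at 6 months, -7.37 ± 0.72 at 12 months and -7.47 ± 0.72 at 14 months (SE, edgeR adjusted p of 2.71e-09, 1.47e-09 and 1.07e-09). Without mouse 27 these were -6.47, -6.66 and -6.76, and with log2 library total as a covariate -6.27, -6.88 and -7.05, all still called. These comparisons share the 1-week libraries with that of 6 weeks, so they are not independent of it. Of all tested entries 74.7% were called at 6 months (37.9% lower, 36.8% higher), 71.6% at 12 months (38.4% lower, 33.2% higher) and 72.9% at 14 months (37.3% lower, 35.5% higher), and the members' calls have to be read against these shares.

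For miR-1a-3p the adult means were 1.88 ± 2.04, 4.46 ± 1.35, 5.07 ± 0.412 and 4.12 ± 1.62 CPM over 6 weeks, 6 months, 12 months and 14 months. At 12 months the 5 libraries lay between 4.44 and 5.54 CPM, from 48 counts in all. Mice 16, 17, 18, 19 and 20 had 4, 7, 10, 10 and 17 counts, too few to resolve so narrow a range. Here adult and 1-week libraries overlapped, with the highest adult at 6.76 CPM (mouse 25 of 14 months) and mouse 5 of 1 week at 6.37 CPM. The log2 fold change against 1 week was -3.12 ± 0.62 at 6 months, -2.92 ± 0.59 at 12 months and -3.20 ± 0.60 at 14 months (SE, edgeR adjusted p of 7.73e-05, 9.74e-05 and 3.45e-05). Without mouse 27 these were -2.05, -1.85 and -2.13, with adjusted p of 0.000471, 0.000826 and 0.000193. With log2 library total as a covariate they were -1.79, -2.14 and -2.61, with adjusted p of 0.0224, 0.00185 and 0.000134.

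The adult means of miR-133a-3p were 0.860 ± 0.856, 1.52 ± 0.496, 1.95 ± 1.33 and 1.81 ± 0.756 CPM over the same ages. It was lower at 6 months, 12 months and 14 months than at 1 week, where it averaged 15.0 ± 8.47 CPM (SD, n = 5 each, exact permutation p of 0.0317, 0.0397 and 0.0397, adjusted p = 0.0496 each). Each of these calls was lost in 9 of the 10 fits that left out 1 library of the ages compared, with an adjusted p of up to 0.0873. In those fits the difference stayed between -13.7 and -11.2 CPM at 6 months.

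Among the adult ages no change of the 3 was called. The edgeR test over the 4 adult ages gave an adjusted p of 0.935 for miR-206-3p (unadjusted p = 0.834) and 0.756 for miR-1a-3p (unadjusted p = 0.457), while 2.56% of tested entries were called. At 14 months against 6 weeks, where 3.84% of tested entries were called (0.512% lower, 3.32% higher; 2 of 15 calls lower with TMM, 5 of 11 with library totals alone), the log2 fold change was 0.66 ± 1.04 for miR-206-3p (edgeR adjusted p = 0.704) and 0.92 ± 0.76 for miR-1a-3p (adjusted p = 0.488). For miR-133a-3p the difference was 0.945 CPM (exact permutation p = 0.0873, adjusted p = 0.0873), and it was called without mouse 24 of 14 months (1.27 CPM, adjusted p = 0.0496). Over the 4 adult ages miR-133a-3p, being below the filter, was tested only in the edgeR fit without the filter (adjusted p = 0.808). That value is not comparable with those of the filtered fit. The pooled counts leave wide intervals here: the level at 14 months over that at 6 weeks was 1.49 for miR-206-3p (95% exact counting interval 0.606 to 4.18), 1.87 for miR-1a-3p (0.969 to 3.90) and 1.88 for miR-133a-3p (0.673 to 6.48).

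The members differed in how far they moved, which their ratio within a library shows without any scaling. The summed counts of miR-206-3p were 0.492 times those of miR-1a-3p over all adult ages, against 9.22 times at 1 week. The mean log2 ratio, with 0.5 added to each count, was -0.09 ± 1.55 at 6 weeks and 3.41 ± 1.16 at 1 week (SD, n = 5 each). It was thus lower by 3.50 at 6 weeks (exact two-sided permutation p = 0.0159, adjusted p = 0.0238 over 6 tests), with 4 of 5 libraries of 6 weeks below all of 1 week. Over all 20 adult libraries the mean was -0.83 ± 1.34, and 19 of 20 were below all of 1 week (exact permutation p = 7.53e-05, adjusted p = 0.000226). In each of these adult libraries the ratio rests on at most 8 counts of miR-206-3p and 20 of miR-1a-3p. Mouse 7 of 6 weeks had 0 counts of both, so its log2 ratio of 0 comes only from the added 0.5. That value is still among the 4 libraries below 1 week, and it entered the mean and the test. Mouse 6 had 1 count of each, and mouse 8 had 2 of miR-206-3p against 0.

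Likewise miR-206-3p stood at 1.25 times miR-133a-3p in summed counts over all adult ages, against 36.6 times at 1 week, or 15.7 times there without mouse 27. The mean log2 ratio was 0.46 ± 1.53 at 6 weeks and 4.53 ± 1.34 at 1 week (SD, n = 5 each, exact permutation p = 0.00794, the smallest possible, adjusted p = 0.0159). All 20 adult libraries lay below all 5 of 1 week (exact permutation p = 3.76e-05, the smallest possible, adjusted p = 0.000226). Low counts and the added 0.5 partly set this separation and its p-values. The share of all pairs of entries that separate this way, here or for miR-206-3p to miR-1a-3p, was not computed. Of single tested entries, 25.3% had every adult library below every 1-week library. Both ratios reuse the fall of miR-206-3p, which passed the filter through 1 week, so they are no separate support for it. Mouse 8 of 6 weeks, with 2 counts of miR-206-3p and 0 of miR-133a-3p, reached 2.32, whereas the lowest 1-week library was at 2.63. An adult library with at most 2 counts of miR-206-3p could therefore not overlap. For miR-1a-3p to miR-133a-3p, which share their primary transcripts, no difference was called. That mean log2 ratio was 0.55 ± 1.40 at 6 weeks and 1.12 ± 1.49 at 1 week (exact permutation p = 0.556, adjusted p = 0.667), and 1.10 ± 0.90 over all adults (exact permutation p = 0.991, adjusted p = 0.991). Its spread at 1 week was wide, from -0.52 in mouse 4 to 3.07 in mouse 27.

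**Figure D3:**
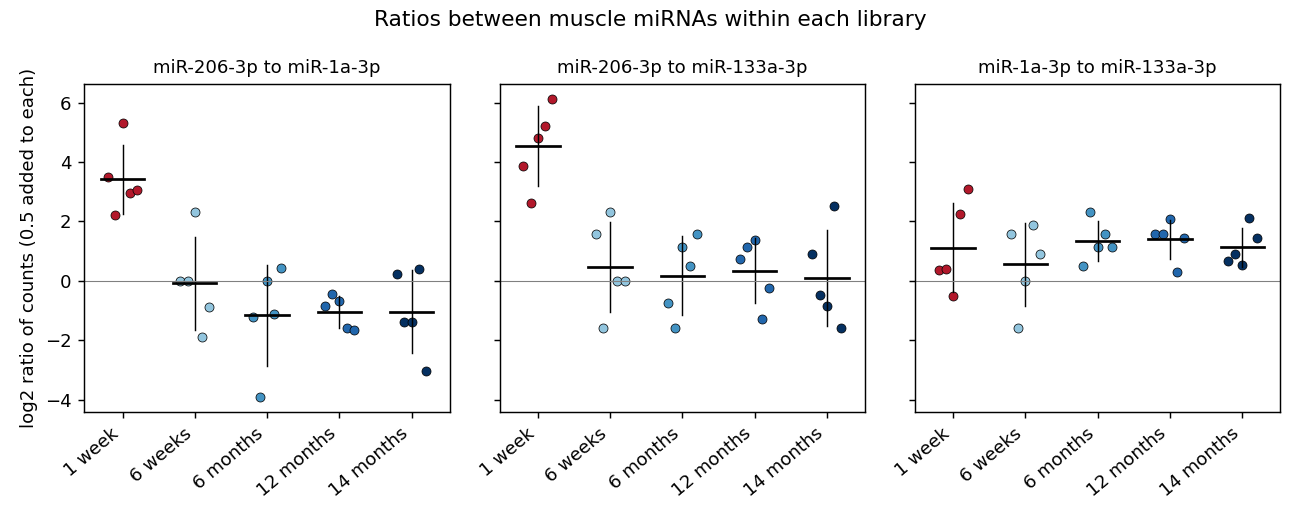
Log2 ratio of the counts of each pair of muscle miRNAs within a library (y axis, 0.5 added to each count), by age. Points are libraries, horizontal lines the mean of 5 and vertical lines the SD. In the middle panel, miR-206-3p to miR-133a-3p, all adult libraries are at 2.50 or less and all 1-week libraries at 2.63 or more. Low adult counts partly set that gap. For miR-1a-3p to miR-133a-3p the ages overlap.

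At 1 week the mice differed widely from each other. The coefficient of variation was 95.8% for miR-206-3p and 119% for miR-1a-3p, against a median of 30.7% over the 218 tested entries with a 1-week mean of at least 20 CPM. Of those entries 5 exceeded miR-206-3p and 1 exceeded miR-1a-3p. From mouse 5 to mouse 27 the level differed 19.6-fold for miR-206-3p and 18.6-fold for miR-1a-3p. These mice held both ends of the range for miR-206-3p and miR-1a-3p, and mouse 5 also the low end for miR-133a-3p and miR-133b-3p. The high end of miR-133a-3p was mouse 3, at 23.8 CPM, so the members did not rank the libraries alike. Mouse 4 was second for miR-206-3p at 481 CPM but below all except mouse 5 for miR-1a-3p at 11.8 CPM. Without both mouse 5 and mouse 27, the log2 fold change of 6 weeks against 1 week was -7.75 for miR-206-3p (edgeR adjusted p = 1.97e-10) and -3.33 for miR-1a-3p (adjusted p = 4.25e-06).

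**Figure D4:**
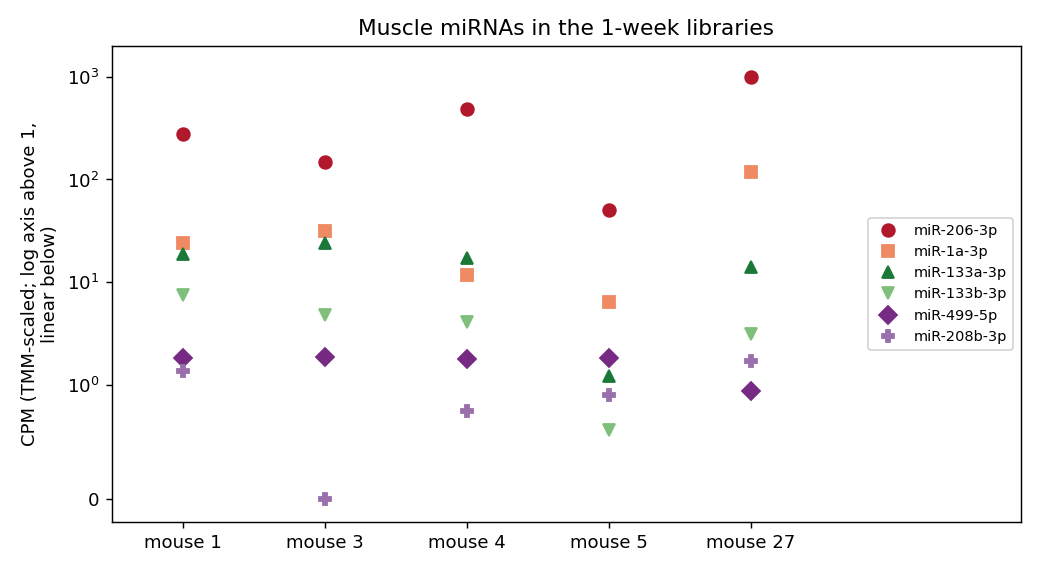
Level in CPM (TMM-scaled; log axis above 1, linear below) of 6 muscle miRNAs in each 1-week library, with the mice on the x axis. Mouse 5 has the lowest miR-206-3p, at 50.4 CPM, and mouse 27 the highest, at 989 CPM, whereas miR-499-5p stays between 0.943 and 1.87 CPM.

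The other muscle miRNAs gave a graded picture. Of 18 entries in the muscle list 9 had a row in the counts and 2, the members already described, were tested. The genomic partner of miR-206, miR-133b-3p, had no count in any library of 6 weeks or 6 months, 5 counts at 12 and 14 months together, and 7.48, 4.81, 4.12, 0.607 and 3.11 CPM in mice 1, 3, 4, 5 and 27 of 1 week. From 102 counts at 1 week, its level was at least 6.78-fold lower at 6 weeks (against 3 counts over the group). An edgeR fit without the filter also gave it an adjusted p of 0.000134 for that comparison, which is not comparable with p-values of the filtered fit. Although both come from 1 locus, the summed counts of miR-206-3p were 140 times those of miR-133b-3p at 1 week, or 55.0 times without mouse 27, and single 1-week libraries ran from 30.8 to 318 times. At 1 week miR-133a-3p had 3.83 times the counts of miR-133b-3p.

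Heart and slow muscle markers were close to the floor. The Myh7 intronic miR-208b-3p had no count in the 20 adult libraries, against 30 counts at 1 week, at 1.36, 0, 0.773, 0.911 and 1.70 CPM in mice 1, 3, 4, 5 and 27. That is at least 1.99-fold lower at 6 weeks, against 3 counts over the group. Mouse 27 held 18 of the 30 counts, and without it this bound was 1.35-fold. The Myh7b intronic miR-499-5p had 1.74 ± 2.23 CPM at 6 weeks and 1.65 ± 0.397 CPM at 1 week (SD, n = 5 each), a pooled level 1.08-fold lower at 6 weeks with a 95% exact counting interval of 0.478 to 2.87. The heart miRNA miR-208a-3p had no row in the counts. For miR-1b-3p, whose gene overlaps Mir1a-2 on the opposite strand, there were 3 counts at 6 weeks and 38 at 1 week, 2.53-fold lower with an interval of 0.802 to 12.8, and strand use in counting is not given. The remaining rows, miR-1b-5p and miR-1a-1-5p, held 8 counts and 1 count over all libraries.

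Some markers of other cells and tissues that a liver preparation could hold were lower at 6 weeks along with the muscle miRNAs and others were higher or not called, and their part in the result was not tested. In bulk vesicles, fewer vesicles from a cell type and less of a miRNA per vesicle cannot be told apart. Summed over the list, muscle miRNAs ranged from 1.94 to 9.77 CPM at 6 weeks and from 61.3 to 1130 CPM at 1 week. The pancreas list ranged from 0 to 4.76 CPM at 6 weeks and from 7.75 to 18.9 CPM at 1 week. Its 1 tested entry, miR-375-3p of islet cells, fell to 0.534 ± 0.797 CPM at 6 weeks, against 9.89 ± 6.19 CPM at 1 week (-3.68 ± 0.79, edgeR adjusted p = 0.000184). In the neural list miR-128-3p fell by 1.07 ± 0.24 on the log2 scale (adjusted p = 0.00026), and miR-219a-5p was at 0.44 ± 0.35 (adjusted p = 0.262), or -0.22 without TMM factors. Of the 9 entries of the neural list, 8 had a row in the counts, all but miR-124-3p, and 2 were tested. The untested miR-9-5p was at 1.15 ± 1.20 CPM at 6 weeks and 4.87 ± 2.54 CPM at 1 week (SD, n = 5 each). The neural list ranged from 26.1 to 47.4 CPM at 6 weeks and from 54.6 to 88.4 CPM at 1 week.

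The skin list went both ways. In it miR-203-3p, of the upper epidermis, rose to 828 ± 95.3 CPM at 6 weeks, against 256 ± 30.9 CPM at 1 week (1.69 ± 0.16, edgeR adjusted p = 1.18e-09). By contrast miR-205-5p, of basal epithelium, fell to 6.66 ± 8.25 CPM at 6 weeks, against 26.6 ± 12.2 CPM at 1 week (-2.03 ± 0.76, adjusted p = 0.0200). Of the other lists, 4 of 5 erythroid, 5 of 6 immune and 5 of 5 epithelial entries fell, with medians of -1.91, -1.54 and -1.39, where 36.8% of all tested entries were called lower. The erythroid entries miR-486a-5p and miR-486b-5p hold identical counts, so they are 1 measurement counted as 2 there and in the list's sums. All 4 hepatocyte entries rose, with a median of 2.16, and 3 of 4 did with RLE scaling or library totals alone. The hepatocyte sum, which is mostly miR-122-5p, was 59.3% to 66.6% of unscaled counts in adults and 57.0% to 69.4% at 1 week, so its order by age in CPM rests on TMM. With TMM 1 of 2 endothelial and 3 of 6 smooth muscle and stellate entries rose and none fell, but with library totals alone 0 and 1 rose and 1 and 3 fell, so these lists have no settled direction. The smooth muscle and stellate sum lay at 6355 to 7724 CPM at 6 weeks and 3891 to 6018 CPM at 1 week with TMM scaling. That gap rests on TMM: the median log2 fold change of this list was 0.40 with TMM and -0.26 with library totals alone.

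**Figure D5:**
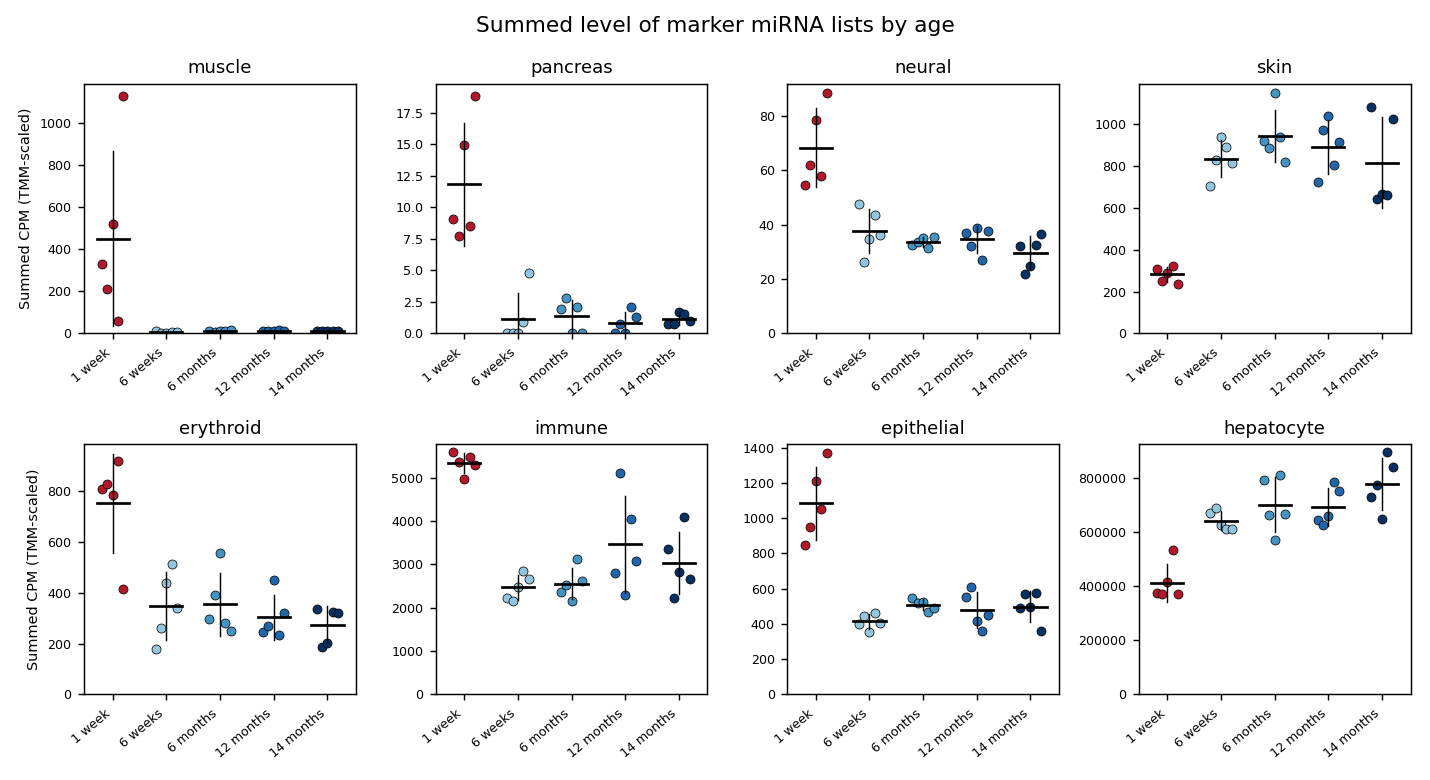
Summed CPM (TMM-scaled, y axis from 0) of 8 marker miRNA lists in each library, by age. Points are libraries, horizontal lines the mean of 5 and vertical lines the SD, cut off at 0. The muscle panel reaches at most 15.4 CPM in adults and 1130 CPM at 1 week. The skin and hepatocyte panels are higher in adults than at 1 week with TMM scaling but overlap in unscaled counts, and the erythroid panel counts miR-486 2 times.

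Within the 1-week group, mouse 27 had the highest sums of the muscle (1130 CPM), pancreas (18.9 CPM), neural (88.4 CPM) and epithelial (1367 CPM) lists. Mouse 4 was second in each of these 4 lists, at 520, 14.9, 78.6 and 1209 CPM. Mouse 5, lowest for muscle at 61.3 CPM, had the highest hepatocyte sum, 533578 CPM, against 369910 to 416084 CPM in the other 4 mice. The size of that gap rests partly on TMM, as mouse 5 had a factor of 1.30 and the others 1.48 to 1.78. In unscaled counts the hepatocyte sums at 1 week spanned 57.0% to 69.4%. Erythroid miRNAs ran the other way, lowest in mouse 27 at 416 CPM and 785 to 920 CPM in the others, or 308 CPM and 623 to 819 CPM with miR-486 taken once. With 5 mice these orders are descriptions.

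The tested entries most like each member were sought by the root mean square difference of log2 CPM, each centred on its own mean. Over the 25 libraries the nearest to miR-206-3p were miR-329-3p (0.86), miR-494-3p (0.86), miR-409-3p (0.88), miR-431-5p (0.88) and miR-298-5p (0.88), against a median of 2.75 over all tested entries. The first 4 come from the imprinted Dlk1-Dio3 locus and the last from the Gnas region. Over all ages this distance includes the fall from 1 week to adult levels near the counting limit. Any entry with a like fall therefore comes near, and shared regulation was not tested. For miR-1a-3p they were miR-429-3p (0.77), miR-200c-3p (0.81), miR-200b-3p (0.81), miR-210-3p (0.81) and miR-223-3p (0.81), with a median of 1.48. For miR-133a-3p they were miR-18a-5p (0.70), miR-218-5p (0.75), miR-210-3p (0.75), miR-1a-3p (0.76) and miR-429-3p (0.76), with a median of 1.42. Those of miR-1a-3p and miR-133a-3p thus overlapped in miR-429-3p and miR-210-3p.

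Over the 5 libraries of 1 week alone, among entries of at least 50 CPM there, the nearest to miR-206-3p was miR-195a-5p (0.69). It had 34.5, 36.6, 99.4, 25.8 and 158 CPM in mice 1, 3, 4, 5 and 27. Next were miR-34a-5p (0.82), miR-150-5p (0.84), miR-15a-5p (0.90) and miR-497a-5p (0.91), the last encoded beside miR-195a, against a median of 1.41. Nearest to miR-1a-3p were miR-150-5p (0.93), miR-34a-5p (0.96), miR-22-3p (1.00), miR-31-5p (1.01) and miR-409-5p (1.02). For miR-133a-3p no entry came close, with miR-154-5p (1.16), miR-206-3p (1.16), miR-98-5p (1.18), miR-31-5p (1.20) and miR-221-3p (1.20) against a median of 1.45. Most of these followed mouse 27, the deepest library, and the part of depth in the likeness was not tested.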

How the data were processed

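The authors deposited 1 table of raw counts per miRNA entry and library, with 1493 rows, 1095 of them named mouse miRNAs, and a length in bases. The submitters' processing notes name Bowtie, edgeR and mm10, without roles or versions. Whether reads or unique molecular identifiers were counted is not given in the sources used here, so intervals and floors (3 counts) cover counting error only. Ages were taken from the sample titles; where nothing names separate handling, p-values measure the spread between these mice.

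The counts were analysed with edgeR 4.0.16 in R 4.3.3: filterByExpr by age (391 tested, 1102 not), TMM factors, and 1 robust quasi-likelihood model of all 25 libraries, tested on simulated data. P-values were Benjamini-Hochberg adjusted over all tested entries, with a threshold of 0.05. The SE was obtained by dividing the absolute log2 fold change by the square root of its F statistic. Exact permutation tests used scipy 1.17.1, and DESeq2 1.42.0 served as an alternative. Sequences came from RefSeq and gene positions from GENCODE for mm10. Sequences of miR-1a-3p and miR-133a-3p are not reported here. Named were the 3 members, muscle list entries with counts, the 5 entries most like each member, and up to 2 entries of other lists. In the neural list miR-124-3p and miR-9-5p were named besides. Members, lists and tests were chosen with earlier results of these data known.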

Additional observations from a re-analysis of the deposited data

Results flagged for a closer look

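In 1 of 30 groups of 5 values examined (3 miRNAs and 3 ratios at 5 ages) a library stood far from the others: miR-1a-3p in mouse 27 of 1 week, at 119 CPM from 1259 counts, with a gap of 0.776 of the whole range against a critical value of 0.71. Chance flags about 1 in 20 such groups.

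Among muscle list rows too low for the edgeR test, 5 held more counts than the limit a count of 0 allows at some age. At 1 week, pooled over the 5 libraries, miR-133b-3p was at 3.93 CPM, miR-1b-3p at 1.47 CPM and miR-208b-3p at 1.16 CPM. The pooled maximum of miR-499-5p was 2.22 CPM, at 14 months, and that of miR-1b-5p 0.426 CPM, at 12 months, from 4 counts.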

How the results depend on the processing

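No paired analysis was possible because no mouse number occurs at more than 1 age. All calls of miR-206-3p and miR-1a-3p against 1 week held in 32 alternatives each: other scaling, no filter, DESeq2, library total as a covariate, only the ages compared, each library left out with the tested entries kept, and, chosen after seeing the data, without mouse 5 and mouse 27. Pooled folds and count ratios without each 1-week library, and unscaled list sums, were also added after seeing the data. Of the 32 alternatives, those without a library of an age not compared bear on a call only through shared scaling and spread. They test it little. With library total as a covariate miR-1a-3p reversed at 14 months against 6 weeks (-0.021, adjusted p = 0.990). For miR-133a-3p, leaving out 1 library of the ages compared gave -17.6 to -11.9 CPM for 6 weeks against 1 week, -16.9 to -11.2 for 6 months, -16.5 to -10.8 for 12 months and -16.6 to -10.96 for 14 months, losing the call in 7, 9, 9 and 9 of 11 alternatives, and 0.730 to 1.27 for 14 months against 6 weeks. With library totals alone its 6-week difference was -23.7 CPM. With 4 against 5 libraries that test has fewer arrangements. The log2 ratio of miR-1a-3p to miR-133a-3p, all adults against 1 week, ran from -0.42 to 0.48 with 1 library left out and has no stable direction. Calls over all tested entries at 14 months against 6 weeks were 15, against 24 with no filter, 26 with only the ages compared, 7 with the covariate and 7 to 16 with 1 library left out. Over the 4 adult ages they were 10, against 25, 22, 5 and 4 to 20, and 38 with DESeq2. Depth limits the adult values, since 13 of 20 adult libraries had at most 3 counts of miR-206-3p.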
